A study of Mus musculus with 4 samples.

Results

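The cells described here are leukocytes that were still present in single-cell RNA sequencing (scRNA-seq) libraries made to hold bone stroma. They were chosen by their transcripts alone. Barcodes first had to pass a filter on UMIs (unique molecular identifiers, which count single RNA molecules): at least 1000 UMIs, at least 500 detected genes, under 15% mitochondrial UMIs and under 5% UMIs of the hemoglobin genes. A leukocyte then needed at least 2 UMIs of *Ptprc*, no UMI of the endothelial gene *Cdh5*, at most 1 UMI of the erythroid genes *Hemgn*, *Ermap* and *Rhag* together, fewer than 20 UMIs of the cartilage gene *Col2a1* per 10000 and fewer than 200 UMIs of the osteoblast gene *Bglap* per 10000. This rule took 126 of 25442 barcodes. *Ptprc* (chromosome 1 of GRCm39, chr1:137990599-138103446) chose the cells, so its level within them is a description and is not tested.

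The dissected metaphyses of femur and tibia came from mice at 12 weeks, with 2 libraries of Lats2iECKO mutants (label: conditional Lats2 KO) and 2 of controls (label: untreated). In the mutants, floxed *Lats2* was deleted with the tamoxifen-inducible *Cdh5(PAC)-CreERT2* transgene, whose promoter is that of an endothelial gene, so leukocytes were not the cells targeted. Controls were littermates without Cre, which by the study's methods were given tamoxifen as well although their label reads untreated, and a *Cdh5(PAC)-mT/nG* reporter had been bred into both genotypes. Bones were crushed and digested with collagenase, and hematopoietic cells were removed with beads against lineage markers, CD45 (the protein of *Ptprc*) and CD117 (the protein of *Kit*). The leukocytes here are therefore those that escaped the beads, and the study left residual hematopoietic cells out of its own maps. The labels do not say how many mice went into a library, so the spread between libraries may be partly technical.

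CD45 is a receptor tyrosine phosphatase on the surface of all nucleated blood cells, where it sets the threshold of antigen and cytokine receptor signaling. Bone marrow makes the granulocytes from stem and progenitor cells through precursors that fill their granules step by step: neutrophil precursors with myeloperoxidase and elastase and later with lactoferrin and cathelicidin, basophils and mast cells with histamine, carboxypeptidase and their own serine proteases. Basophils are the rarest granulocytes of blood, are made in the marrow, and release interleukin 4, interleukin 6 and histamine when activated.

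The libraries held between 69636600 and 85899079 UMIs, and barcodes that were not leukocytes had medians between 7397 and 7972 UMIs. Leukocytes held a median of 11202 UMIs, between 1401 and 31223. No barcode of a leukocyte was shared between libraries, against 71 shared barcodes in the whole set. *Lats2* (chr14:57926960-57995845) stood at 27.6 and 20.2 CPM (UMIs of the leukocytes scaled to the same total in each library) in the mutants and at 22.5 and 40.6 CPM in the controls, a log2 difference of −0.21 (SE 0.53, adjusted p = 0.941, edgeR quasi-likelihood test). The Cre-ERT2, tdTomato and eGFP transcripts had no UMI in any leukocyte. Free RNA was estimated at 1.40% to 1.75% of a barcode's UMIs.

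Leukocytes were a smaller share of the mutant libraries than of the control libraries. The first mutant library held 15 leukocytes among 5279 barcodes, or 0.284% (95% Clopper-Pearson interval 0.159% to 0.468%). The second held 9 among 6055, or 0.149% (0.0680% to 0.282%). Control libraries held 56 among 7080, or 0.791% (0.598% to 1.03%), and 46 among 7028, or 0.655% (0.480% to 0.872%). Both mutant shares lay below both control shares, and no interval of a mutant library reached that of a control library. The mean share was 0.216% ± 0.0958 (SD, n = 2) in mutants and 0.723% ± 0.0965 (SD, n = 2) in controls, a 3.34-fold difference. The 2-sided exact permutation test gave p = 0.333, which with 2 libraries a side is the lowest it can give, so this test cannot pass 0.05. These intervals cover counting error only. The permutation p takes its lowest value whenever the groups do not overlap, whatever the spread between libraries. Since the beads set how many leukocytes stayed, the share is not a share of the marrow, and a difference in marrow and a difference in depletion cannot be told apart.

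**Figure D1:**
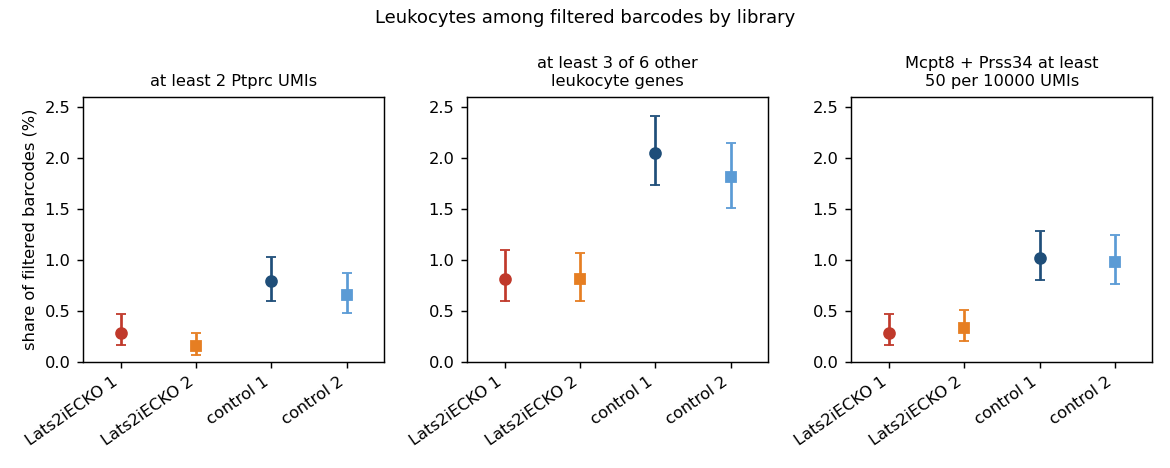
Share of filtered barcodes (y axis, percent) in each of the 4 libraries under 3 ways of choosing leukocytes, with 95% Clopper-Pearson intervals as bars. Under all 3 rules both mutant libraries lie below both controls, at 0.284% and 0.149% against 0.791% and 0.655% for the rule on *Ptprc*.

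The rule on *Ptprc* was a narrow one. Of the 59 leukocytes just inside it, with exactly 2 *Ptprc* UMIs, 56 had UMIs of at least 3 of 6 other genes of the leukocyte lineage (*Laptm5*, *Coro1a*, *Cd52*, *Cd53*, *Arhgdib*, *Rac2*), which encode lysosomal, actin-binding and surface proteins of blood cells. Of the 67 with 3 or more *Ptprc* UMIs, 64 did. Just outside it, 99 of the 120 barcodes with a single *Ptprc* UMI (82.5%) also had 3 of these genes, against 7 of 4441 chondrocyte barcodes rich in *Col2a1* (0.158%). *Coro1a*, which encodes an actin-binding protein of leukocytes, had a UMI in 92.1% of the leukocytes and 0.991% of the *Col2a1* barcodes. *Laptm5* had one in 88.1% and 0.743%, although the *Col2a1* barcodes were deeper, with a median of 15330 UMIs. *Arhgdib*, at 92.9% and 16.8%, separated the cells less well.

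Without *Ptprc*, the 3-of-6 rule took 364 barcodes: 43 and 49 in the mutants and 145 and 127 in the controls. They held 120 of the 126 leukocytes, which made up 33.0% of them. Their share was 0.812% ± 0.00375 (SD, n = 2) in mutants and 1.93% ± 0.170 (SD, n = 2) in controls, 2.37-fold higher in controls. A minimum of 1 *Ptprc* UMI gave 0.626% and 1.24%, a 1.98-fold difference. Thinning the *Ptprc* count to a depth of 5000 UMIs, with the other limits at full depth, gave expected shares of 0.0733% and 0.328%. This was a 4.48-fold difference. Barcodes under 5000 UMIs were left out as too shallow, 1467 and 1751 in the mutants and 1936 and 1877 in the controls. Among these were 17 control leukocytes and no mutant leukocyte.

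Mutant and control leukocytes differed in depth. The medians were 20020 and 21146 UMIs in the mutant libraries and 9968 and 10350 UMIs in the controls. The other barcodes had medians of 7972 and 7730 UMIs in mutants and 7397 and 7559 UMIs in controls, a far smaller gap. In the 364 barcodes chosen without *Ptprc*, the medians were 11322 and 11056 UMIs in mutants and 9724 and 9269 UMIs in controls. Among them, a *Ptprc* UMI was found in 67.4% and 63.3% of the mutant barcodes and in 57.9% and 59.1% of the control barcodes. Within the 126 leukocytes *Ptprc* stood at 147 and 179 CPM in mutants and at 280 and 272 CPM in controls. The part of depth in the comparisons that follow was not tested beyond the cell sets named there.

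Markers of granulocyte precursors, of basophils and of progenitors were the most common among the leukocytes. *Hdc*, which encodes the enzyme that makes histamine, had a UMI in 77.8% of them and in 0.923% of the *Col2a1* barcodes. *Cpa3*, carboxypeptidase A3 of mast cell and basophil granules, was found in 62.7% and 0.450%. The granule genes *Mpo* (myeloperoxidase) and *Ctsg* (cathepsin G) were each found in 57.9% of the leukocytes and in 0.518% and 0.721% of the *Col2a1* barcodes. *Mcpt8* (chr14:56319623-56322730), which encodes a protease that defines mouse basophils, was found in 48.4% and 2.03%. *Prss34* (chr17:25517368-25519142), another basophil protease, was found in 42.1% and 2.14%. Some genes of progenitors were common as well: *Gata2* in 76.2% and 2.32%, *Angpt1* in 82.5% and 4.55%, *Kit* in 57.9% and 0.833%. *Cd34* was found in 48 leukocytes. The proliferation genes *Mki67* and *Top2a* each had a UMI in 48.4% of the leukocytes, against 6.64% and 7.59% of the *Col2a1* barcodes. *Nkg7*, a granule membrane gene of cytotoxic lymphocytes that basophils also carry, was found in 74.6%, while *Ncr1*, *Klrb1c*, *Gzma* and *Prf1* of NK cells had no UMI in any leukocyte.

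Leiden clustering after integration of the libraries gave 4 groups, numbered 0 to 3, with 32, 57, 23 and 14 cells. The clusters were made from the genes of these same cells, so what sets them apart is a description.

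Cluster 2, with 23 cells, was basophil-like. All 23 cells had UMIs of *Mcpt8*, *Prss34*, *Cpa3*, *Hdc* and *Gata2*. *Fcer1a*, the alpha chain of the high-affinity IgE receptor, was found in 18 and *Cd200r3*, an activating receptor of basophils and mast cells, in 15. The 6 basophil markers together took a median of 365 UMIs per 10000 in these cells, with a range of 96.2 to 895. Over libraries, *Mcpt8* in cluster 2 stood at 5152 and 11917 CPM in mutants and at 11373 and 12886 CPM in controls. *Prss34* stood at 2926 and 23049 CPM in mutants and at 15064 and 28400 CPM in controls. The first mutant library, with 2 such cells, was the lowest for both genes, and the other mutant library lay between or near the controls. The 10 genes that led the cluster included *Cd200r3*, the granzyme genes *Gzmb* and *Gzmc*, and *Alox15*. *Ctsg* was found in 22 and *Mpo* in 20 of its cells. *Il6* was found in 21 and *Il4*, a cytokine that basophils release early in allergic responses, in 15. The chemokine genes *Ccl4* and *Ccl3* were found in 14 and 13. The mast cell proteases *Tpsb2*, *Tpsab1*, *Mcpt4* and *Cma1* had no UMI in any of the 126 leukocytes, so of the mast cell list the signal came from genes that basophils share.

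Cluster 1, the largest with 57 cells, was left unnamed, since its 10 leading genes came from few cells. It was led by *Prg2* and *Prg3* of eosinophil granules, with *Prg2* in 3 cells, and by *Slc15a3*, *Ear1*, *Asprv1* and *Slfn4*. *Hdc* was found in 56 of the 57 cells, *Mpo* in 43, *Ctsg* in 42, *Mcpt8* in 34 and *Elane*, which encodes neutrophil elastase, in 20. The cluster thus held the genes of granule-forming precursors in most cells and the basophil protease in many. It also held 12 of the 16 cells rich in neutrophil genes described further on.

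Cluster 0, with 32 cells, was also left unnamed. *Igkc*, *Ppbp*, *Bank1*, *H2-Aa*, *Treml1*, *Vpreb3* and *Pax5*, which belong to B cells and to megakaryocytes or platelets, led it, each in between 1 and 3 cells. Several genes of the stem and progenitor list were common in it. *Cdk6*, a cell cycle kinase of hematopoietic progenitors, had UMIs in all 32 cells, *Sox4* in 31, and *Angpt1*, *Meis1* and *Kit* in 26 each. The others of the list were found in fewer cells, *Cd34* in 9, *Hlf* in 8 and *Mecom* in 5. *Angpt1* was no less common in the basophil-like cluster (22 of 23 cells) and in cluster 3 (14 of 14). The 8 genes of the list took a median of 39.1 UMIs per 10000 in this cluster. It was 24.4 in cluster 1, 19.2 in the basophil-like cluster and 5.48 in cluster 3. *Top2a* was found in 20 and *Mki67* in 19 of the 32 cells, and *S100a8* and *S100a9* in none.

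**Figure D2:**
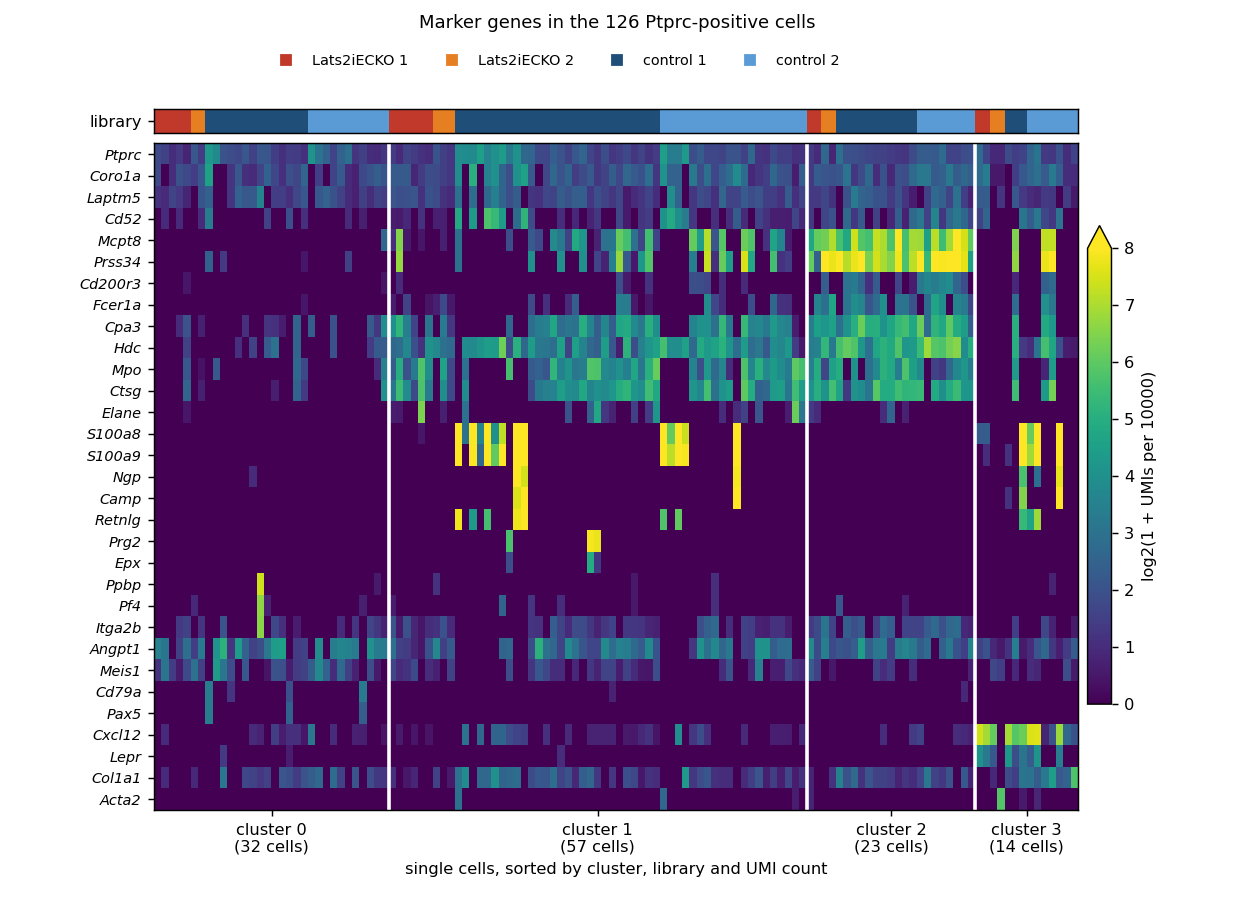
Levels of marker genes in the 126 leukocytes, 1 column per cell in the order of cluster, library and UMI count, with log2(1 + UMIs per 10000) as color and the library in the strip above. *Mcpt8* and *Prss34* are found in all 23 cells of cluster 2, while *S100a8* and *S100a9* are high in a few cells of clusters 1 and 3 from the control libraries.

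Leukocytes rich in neutrophil genes were found in both control libraries and among none of the 24 mutant leukocytes. The 11 neutrophil genes together took at least 50 UMIs per 10000 in 16 cells, 8 in each control library. The cells stood far from the limit: the lowest of them held 121 per 10000, and the highest cell below it held 27.5. They made up 14.3% (Clopper-Pearson interval 6.38% to 26.2%) and 17.4% (7.82% to 31.4%) of the control leukocytes. In the mutants 0 of 15 (interval 0% to 21.8%) and 0 of 9 leukocytes (0% to 33.6%) passed. Both mutant intervals hold both control shares, so neither mutant library taken alone, with so few cells, could show a difference in this share. Over both mutant libraries, 0 of 24 cells allows a share of up to 12.5%, against 15.7% of the 102 control leukocytes. That limit covers counting error only, and the difference was not tested. The neutrophil-rich cells had median depths of 2005 and 5878 UMIs in the control libraries, and 4 of the 16 also passed the limit for genes of marrow stromal cells.

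The summed levels of these genes differed widely. *S100a8* (chr3:90567118-90578128), a subunit of the calprotectin complex of neutrophils, had 7 and 0 UMIs in the mutants and 2817 and 2967 in the controls. *S100a9*, its partner, had 1 and 0 UMIs in mutants and 3012 and 3319 in controls. *Camp*, the cathelicidin of secondary granules, had no UMI in the mutants and stood at 682 and 1647 CPM in the controls. Pooled over libraries, *S100a8* was 319-fold higher in controls (interval 155 to 794, which covers counting error only and takes UMIs of the same cell as independent). *Camp* was at least 167-fold, *Ngp* at least 117-fold, *Retnlg* at least 74.4-fold and *Ltf*, lactoferrin, at least 36.3-fold lower in mutants, with a floor of 3 counts over both mutant libraries, again for counting error only. None of these genes entered the test across genes, because fewer than 20% of the cells of either genotype had a UMI. A single cell held 24.3% of the *S100a8* UMIs. In empty droplets, *S100a8* stood at 1.46 and 3.29 CPM in mutants and at 19.8 and 71.3 CPM in controls. Over all 25442 barcodes, whatever their *Ptprc* count, 22 passed the same limit, with 0 and 1 in the mutants and 10 and 11 in the controls.

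Basophil protease cells showed the same direction over all barcodes. Barcodes with at least 50 UMIs of *Mcpt8* and *Prss34* per 10000 numbered 15 and 20 in the mutants and 72 and 69 in the controls. Their share was 0.307% ± 0.0326 (SD, n = 2) in mutants and 0.999% ± 0.0249 (SD, n = 2) in controls, a 3.25-fold difference (exact permutation p = 0.333, the smallest possible). Of these 176 barcodes, 36 were leukocytes by the *Ptprc* rule. Among the leukocytes themselves they were 3 of 15 and 2 of 9 cells in mutants and 15 of 56 and 16 of 46 cells in controls. The difference between genotypes was thus in the share of all barcodes, about as large as for leukocytes as a whole, and smaller in the share among leukocytes.

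Other lineages were rare or not seen. Eosinophil genes passed 50 per 10000 in 3 cells of the first control library, which held *Prg2* and *Epx*. B-lineage genes passed in 3 control cells, monocyte genes in 2 cells and megakaryocyte genes in 1 cell, which alone held 97.6% of all *Ppbp* UMIs. No leukocyte passed this limit for macrophages, osteoclasts, conventional or plasmacytoid dendritic cells, plasma cells, T cells, NK cells or type 2 innate lymphoid cells. The highest cell held 5.51 UMIs per 10000 of the macrophage list and 5.51 of the T cell list. *C1qa*, *C1qb*, *C1qc*, *Mrc1*, *Trem2* and *Spic* of macrophages had no UMI, nor had *Cd3g*, *Cd4* and *Cd8a* of T cells, *Ms4a1* and *Rag1* of B cells, *Jchain* of plasma cells, *Siglech* of plasmacytoid dendritic cells, or *Ocstamp* and *Dcstamp* of osteoclasts. For a lineage with no cell among 126, the count of 0 allows a share of up to 2.38%.

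**Figure D3:**
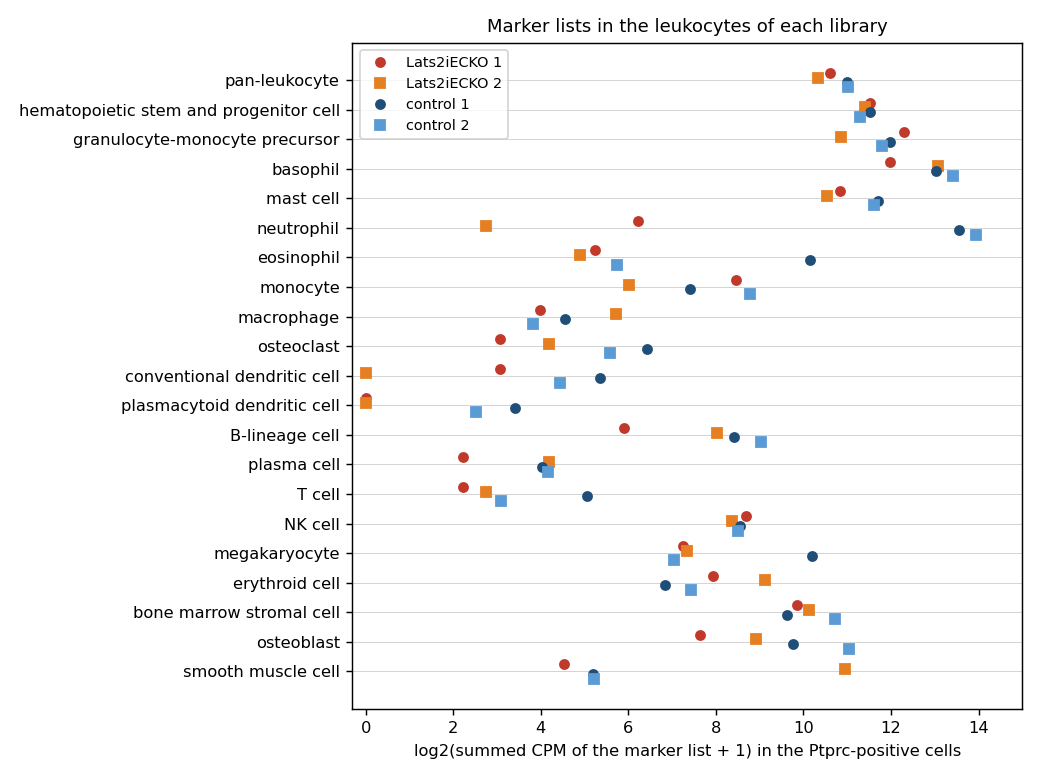
Summed level of each marker list in the leukocytes of each library, as log2(summed CPM + 1) on the x axis, with 1 point per library. The neutrophil list stands at 73.7 and 5.77 CPM in the mutants and at 12016 and 15762 CPM in the controls, while the progenitor lists overlap between genotypes.

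Cluster 3, with 14 cells, carried genes of stromal cells and was left unnamed. It was led by *Col8a1*, *Plxna2*, *Dpysl3*, *Bicc1*, *Cxcl14*, *Limch1*, *Adam12* and *Serping1*. *Cxcl12*, the chemokine by which marrow stroma holds hematopoietic cells, had UMIs in 13 of its cells and *Lepr*, the leptin receptor of marrow reticular cells, in 9. Of its 14 cells 9 were called as doublets, that is as pairs of cells under 1 barcode, against 6 of 32, 8 of 57 and 1 of 23 in clusters 0, 1 and 2. Their part in the stromal signal was not tested. Over all leukocytes 4 of 15 and 1 of 9 cells were called as doublets in the mutant libraries and 11 of 56 and 8 of 46 in the controls. Of all filtered barcodes, 4.22% and 4.84% were called in the mutants and 5.66% and 5.62% in the controls, a smaller share in each library. A single cell of the second mutant library held 95.5% of all *Acta2* UMIs, the smooth muscle actin gene.

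The make-up by cluster did not differ detectably between genotypes. The integration before clustering favors clusters in which the libraries are mixed, so a difference in make-up could be lessened by it. The cells rich in neutrophil genes, all from controls, lay in clusters 1 (12 cells) and 3 (4 cells). Cluster 1 took 36.7% ± 4.71 of the mutant and 46.7% ± 4.61 of the control leukocytes (SD, n = 2), a log2 ratio of −0.32 (adjusted p = 0.838, edgeR quasi-likelihood test on cell counts). The basophil-like cluster took 17.8% ± 6.29 and 18.5% ± 1.59, a log2 ratio of −0.16 (adjusted p = 0.838, same test). Cluster 0 took 27.8% ± 7.86 and 24.5% ± 0.769, with a log2 ratio of 0.25. Cluster 3 took 17.8% ± 6.29 and 10.3% ± 6.97, with a log2 ratio of 0.74. Neither passed the threshold (adjusted p = 0.838 for each, same test). With as few as 2 cells of a cluster in a library, these ratios are uncertain, and a p above the threshold does not show that the make-up was alike. No cluster had 10 cells in each library, so genotypes were not compared within clusters.

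For the comparison of genes, UMIs were summed over all leukocytes of a library, and mutants were set against controls with edgeR's quasi-likelihood test. Of 6147 genes tested, 15 were higher in mutants (0.244% of those tested) and 34 were lower (0.553%) with an adjusted p up to 0.05 and a log2 change of 1 or more in size. At an unadjusted p under 0.05 there were 599 genes (9.74%). Every one of the 49 called genes had both mutant libraries on one side of both controls, as had 19.6% of all genes tested above and 20.9% below the controls. Of the calls, 8 higher and 27 lower genes code for proteins, *Bglap* of the rule among the latter. The lower calls include 4 copies of *Snord3b* with the same values in every library. *Gm12191* and *Rpl30-ps9* share their values likewise among the higher calls. Each of these copies is counted on its own, so the calls are not all distinct. Genes needed a UMI in 20% of the cells of either genotype, and 4 of the higher and 9 of the lower calls met this only in the genotype in which they were higher, so they had to differ to be tested: *Gm6937*, *Gm8420*, *Car1* and *Slc25a21* in mutants, and *Il1b*, *Acod1*, *Slpi*, *Rnase12*, *Tnc*, *Bglap2*, *Pik3ap1* and 2 noncoding genes in controls. The number of calls moved with the setting. When the 6 barcodes beyond the limits on *Col2a1* and *Bglap* were let in, 8 genes were called, and without the first mutant library 80 genes were called higher and 80 lower, and without the second 52 and 138. With 1 mutant library left, the spread came from the controls alone, and the lone library was assumed to vary like them. The 8 were *Rps3a3*, *Gm6937*, *Mpp7*, *Rpl30-ps9*, *Rnase12*, *Il1b*, *Antxr2* and *Gm47283*.

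Among the genes that were higher in the mutants was *Nfkb1* (chr3:135290264-135397742), which encodes the p105 and p50 subunit of the NF-kappa-B transcription factors. It stood at 1489 and 1415 CPM in the mutants and at 344 and 552 CPM in the controls. Both mutant libraries lay well above the controls, with a log2 change of 1.71 (SE 0.23, adjusted p = 0.00260). A set chosen without *Ptprc* served as a comparison: the 165 barcodes that held at least 50 UMIs of *Mcpt8* and *Prss34* per 10000 and met the other limits of the rule, called protease barcodes below. Of 5373 genes tested in them, 83 were called higher (1.54%) and 58 lower (1.08%). There *Nfkb1* stood at 853 and 775 CPM in mutants and at 284 and 246 CPM in controls (log2 change 1.66, adjusted p = 5.46e-04, edgeR). In the 364 barcodes of the 3-of-6 rule it stood at 1568 and 765 CPM against 283 and 325 CPM and was not called (1.88, adjusted p = 0.0544), nor was it without the limits on *Col2a1* and *Bglap* (1.72, adjusted p = 0.0522). *Mpp7*, which encodes a membrane scaffold protein of cell polarity, stood at 626 and 676 CPM against 198 and 195 CPM (1.74, SE 0.22, adjusted p = 0.00215). It was higher in the protease barcodes too, at 186 and 238 against 98.1 and 56.1 CPM (adjusted p = 0.0136).

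*Car1*, carbonic anhydrase 1 of early erythroid cells, stood at 195 and 503 CPM in mutants and at 72.4 and 119 CPM in controls (log2 change 1.84, SE 0.37, adjusted p = 0.0369, edgeR). It had entered the test through the mutant cells alone (41.7% with a UMI, against 13.7% of control cells), so its p is a description. Its top cell in each library held 38 of 53 and 73 of 87 UMIs in the mutants. In the controls the top cell held 19 of 45 and 38 of 63. The call was lost when cells called as doublets were left out (0.88, adjusted p = 0.453) or cluster 3 was (0.84, adjusted p = 0.266). *Gstm5*, a glutathione transferase gene, stood at 129 and 110 CPM against 32.2 and 35.9 CPM (1.83, adjusted p = 0.0191). *Slc25a21*, which encodes a mitochondrial carrier, stood at 66.3 and 202 CPM against 6.43 and 16.1 CPM, with 50.4% of its UMIs in a single cell. It too had entered the test through the mutant cells alone. Chosen after their values were seen, *Bmpr2*, a receptor for bone morphogenetic proteins, and *Smad7*, an inhibitor of TGF-beta and BMP signaling, were higher as well. *Bmpr2* stood at 155 and 185 CPM in mutants and at 57.9 and 60.5 CPM in controls (1.51, SE 0.27, adjusted p = 0.0169). *Smad7* stood at 133 and 191 CPM against 57.9 and 62.4 CPM (1.40, SE 0.29, adjusted p = 0.0367). Among the protease barcodes the changes were 1.80 (adjusted p = 0.0200) for *Bmpr2* and 1.17 (adjusted p = 0.152) for *Smad7*, both by edgeR. DESeq2 called neither in the leukocytes (adjusted p = 0.120 and 0.227), and the calls were lost in 5 and 7 of 16 other settings.

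The other higher calls among the 10 of largest size were processed pseudogenes, whose reads are shared with their parent genes and are uncertain. *Rps3a3* (chr13:108807137-108807931) stood at 727 and 495 CPM in mutants and at 11.7 and 13.6 CPM in controls (log2 change 5.64, adjusted p = 1.11e-06, edgeR). It was unequal in the same direction, though less so, in empty droplets, at 438 and 435 CPM in mutants and 38.7 and 38.2 CPM in controls, so the difference was not particular to leukocytes. *Gm12191* and *Rpl30-ps9* carried the same values in every library. *Gm6937* and *Gm8420* were the others of this kind.

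The most extreme lower gene was *Rnase12*, a member of the ribonuclease A family, at chr14:51294155-51295118 on the chromosome of *Lats2*. It had no UMI in a mutant leukocyte and stood at 122 and 102 CPM in the controls, in 25 and 16 cells. It was at least 16.7-fold lower in mutants against the floor of 3 counts over both libraries. The gene had entered the test through the control cells alone (40.2% with a UMI, against 0% of mutant cells). Its adjusted p of 0.00153 (edgeR) is therefore a description. The protease barcodes gave 0 and 0 CPM against 169 and 190 CPM, and empty droplets 0 and 0 against 4.06 and 4.15 CPM. The gene thus had no UMI in these mutant sets, and any link to its place on the chromosome was not tested.

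The inflammatory genes *Il1b*, *Ccl3* and *Ccl4* were lower in mutant leukocytes and stood higher in mutants among the protease barcodes. Of these genes, only *Ccl3* and *Ccl4* were tested in the protease barcodes. *Il1b* (chr2:129206490-129213059), interleukin 1 beta, stood at 11.1 and 11.6 CPM in mutants and at 195 and 210 CPM in controls, with 3, 2, 121 and 111 UMIs. The log2 change was −4.11 (SE 0.39, adjusted p = 1.82e-04, edgeR), and the gene had entered the test through the control cells alone (20.6% with a UMI, against 12.5% of mutant cells). Without the 16 cells rich in neutrophil genes the control levels were 66.9 and 21.1 CPM, still above the mutants, and the gene no longer passed the filter for testing. Protease barcodes gave 107 and 602 CPM in mutants and 20.2 and 28.9 CPM in controls, the opposite direction. The mutant levels there rested on 15 and 119 UMIs, and the turn of *Il1b* was not tested. Among the barcodes of the 3-of-6 rule the libraries overlapped, at 36.2 and 193 CPM in mutants and 55.7 and 115 CPM in controls. *Il1b* was not tested in that set either.

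*Ccl3*, a chemokine for monocytes and granulocytes, stood at 33.2 and 34.7 CPM in mutant leukocytes and at 111 and 493 CPM in controls (log2 change −3.12, SE 0.65, adjusted p = 0.0440, edgeR). Protease barcodes held it at 5290 and 1909 CPM in mutants and at 1039 and 1353 CPM in controls, and was called higher (1.61, adjusted p = 0.0107). *Ccl4*, a close relative, stood at 44.2 and 75.1 CPM against 207 and 614 CPM in leukocytes (−2.82, SE 0.49, adjusted p = 0.0150). Protease barcodes held it at 6257 and 2673 CPM against 932 and 1351 CPM (1.99, adjusted p = 0.00134). In the 364 barcodes of the 3-of-6 rule, where 13 of 6521 genes were called higher (0.199%) and 18 lower (0.276%), both were above 0 and not called, at 0.90 (adjusted p = 0.272) for *Ccl3* and 1.25 (adjusted p = 0.142) for *Ccl4*. With 3 or more *Ptprc* UMIs required, the changes in leukocytes were −0.54 (adjusted p = 0.896) and −0.61 (adjusted p = 0.806).

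Of the 14 genes of the inflammatory cytokine and chemokine list, 8 were tested. *Il1b* had entered through the control cells alone, and of the 7 others *Ccl3* and *Ccl4* fell and none rose, against 0.553% of all genes tested called lower. Of these 7, 6 had both mutant libraries below both controls, as had 20.9% of all genes tested. *Osm*, oncostatin M, stood at 33.2 and 28.9 CPM against 88.5 and 100.1 CPM (−1.56, adjusted p = 0.0846), and *Csf1* at 47.9 and 121 CPM against 191 and 236 CPM (−1.42, adjusted p = 0.0841, edgeR), neither past the threshold. *Il6* overlapped between genotypes, at 14.7 and 277 CPM in mutants and 188 and 282 CPM in controls.

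**Figure D4:**
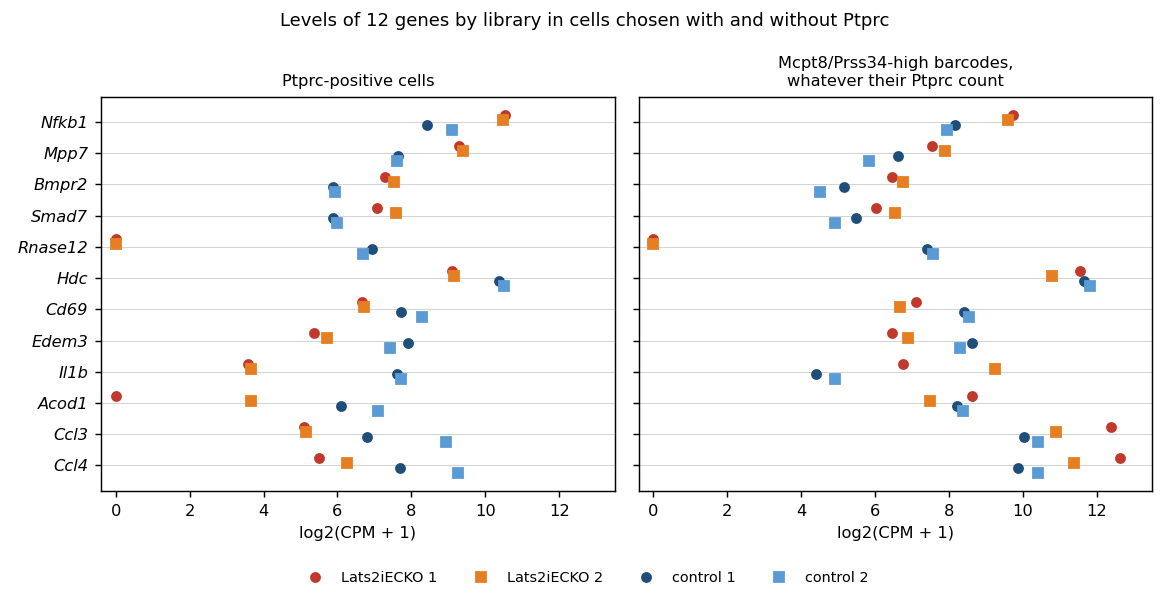
Levels of 12 genes by library as log2(CPM + 1), in the 126 leukocytes on the left and in the 165 barcodes rich in *Mcpt8* and *Prss34* on the right, 1 point per library. *Nfkb1*, *Mpp7* and *Rnase12* keep their side in both sets, while *Il1b*, *Ccl3* and *Ccl4* are lower in mutants on the left and higher in mutants on the right.

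*Hdc* stood at 545 and 566 CPM in mutants and at 1325 and 1453 CPM in controls (log2 change −1.31, SE 0.20, adjusted p = 0.00506, edgeR). In the protease barcodes its change was −0.50 and was not called (adjusted p = 0.197). The other basophil genes did not pass in the leukocytes. *Mcpt8* stood at 1330 and 2286 CPM in mutants and at 2969 and 3234 CPM in controls (−0.78, adjusted p = 0.186), and *Prss34* at 1160 and 4411 CPM against 3628 and 5973 CPM (−0.79, adjusted p = 0.590). All 6 genes of the basophil list were tested and none was called, with a median of −0.50.

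*Cd52*, a small surface glycoprotein of leukocytes, stood at 66.3 and 80.9 CPM in mutants and at 206 and 195 CPM in controls (log2 change −1.45, SE 0.27, adjusted p = 0.0221, edgeR). It was the single call among the 6 genes of the pan-leukocyte list other than *Ptprc*, against 0.553% of all genes tested called lower. Without the neutrophil-rich cells the change was −0.63 (adjusted p = 0.551), the protease barcodes gave 0.18 (adjusted p = 0.766), and the call was lost in 7 of 16 other settings. *Acod1*, which encodes the enzyme that makes itaconate in activated myeloid cells, had 2 UMIs in mutants and 114 in controls, a ratio of 22.0 (adjusted p = 0.0186, edgeR). The interval of this ratio, 5.96 to 184, covers counting error only and takes UMIs of the same cell as independent. *Slpi*, an inhibitor of leukocyte proteases, stood at 3.69 and 17.3 CPM against 138 and 90.7 CPM (−3.61, adjusted p = 0.00748). *Acod1* (4.17% of mutant and 20.6% of control cells with a UMI) and *Slpi* (16.7% and 22.5%) had entered the test through the control cells alone. Their p-values are descriptions. The fit without the 16 neutrophil-rich cells did not test *Acod1* or *Slpi*, and in the protease barcodes *Acod1* stood at a log2 change of −0.13 (adjusted p = 0.874, edgeR) and *Slpi* at 0.21, neither of them called. *Antxr2*, an anthrax toxin receptor, and *Pik3ap1*, an adaptor of phosphoinositide 3-kinase, also fell, by 3.25 and 3.23 on the log2 scale, as did the noncoding *B930036N10Rik* (by 3.88) and the small nucleolar RNA *Snord3b*. *Pik3ap1* and *B930036N10Rik* had also entered the test through the control cells alone. *Antxr2* was not called without the neutrophil-rich cells (−1.80, adjusted p = 0.279) or in the protease barcodes (0.02, adjusted p = 0.994), and the call of *Pik3ap1* was lost in 8 of 12 other settings.

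Stress genes fell in part. Of 12 immediate early and stress genes, all tested, *Zfp36* and *Hspa1b* fell and none rose, against 0.553% of all genes tested called lower. The mutants were below both controls in 6 genes and above both in 2, against 20.9% and 19.6% of all genes, and the median was −0.40. *Zfp36*, which encodes an mRNA-decay factor that restrains cytokine transcripts, stood at 77.4 and 69.3 CPM against 182 and 212 CPM (−1.39, adjusted p = 0.0275, edgeR). Its call was lost in 8 of 16 other settings, among them the protease barcodes (−0.75, adjusted p = 0.344) and the fit without neutrophil-rich cells (−1.14, adjusted p = 0.0912). *Hspa1b*, an inducible heat shock protein 70 gene, stood at 224 and 142 CPM against 623 and 424 CPM (−1.46, adjusted p = 0.0267), a call lost in 4 of 16 other settings. Its near-identical copy *Hspa1a* shares reads with it, so the level of either is uncertain. Chosen after their values were seen, *Hsph1*, another heat shock gene, stood at 22.1 and 57.8 CPM against 166 and 189 CPM (−2.25, adjusted p = 0.00875), and *Edem3*, of protein quality control in the endoplasmic reticulum, at 40.5 and 52.0 CPM against 241 and 170.1 CPM (−2.17, adjusted p = 0.00506). *Cd69*, an early activation receptor of leukocytes chosen in the same way, stood at 99.5 and 104 CPM against 209 and 310 CPM (−1.33, adjusted p = 0.0449). It also fell in the protease barcodes (−1.55, adjusted p = 0.00259, edgeR), while its call was lost in 8 of 16 other settings.

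Several genes of bone matrix were lower in mutant leukocytes, though not in every set of cells. *Bglap2* stood at 8.60 and 1.93 CPM against 85.3 and 150.5 CPM (log2 change −4.60, adjusted p = 0.00506, edgeR), and *Tnc*, tenascin C, at 18.4 and 5.78 CPM against 130.3 and 512 CPM (−4.52, adjusted p = 0.0108). *Tnc*, like *Bglap2*, had entered the test through the control cells alone, so both p-values are descriptions. *Bglap* had chosen the cells, so its call is a description. Of the 6 other osteoblast genes 4 were tested. *Bglap2* had entered through the control cells alone, and of the 3 others *Col1a1* and *Col1a2* fell, against 0.553% of all genes tested called lower. *Dcn*, decorin of fibroblasts, fell by 1.99. A single cell held 46.9% of its UMIs, and 45.8% of mutant and 32.4% of control cells had one. Free RNA moved with them: in empty droplets *Bglap* stood at 7332 and 4957 CPM in mutants and at 16753 and 17088 CPM in controls, and *Col1a1* at 5425 and 4589 CPM against 17647 and 18489 CPM. After subtraction of free RNA, *Dcn* was called lower (adjusted p = 0.00725, edgeR; its fitted change rests on few mutant UMIs and is not given), *Col1a2* was not (−3.29, adjusted p = 0.214), and *Bglap*, *Bglap2* and *Col1a1* no longer passed the filter. *Col1a1*, *Col1a2* and *Dcn* were called higher in the protease barcodes, at log2 changes of 3.67, 3.39 and 4.53. There *Dcn* stood at 50.2 and 4642 CPM in mutants and at 133 and 83.2 CPM in controls. Its call thus rests on the second mutant library, and the first lay below both controls. *Col1a1* stood at 5935 and 653 CPM in mutants and at 211 and 309 CPM in controls. *Col1a2* stood at 3820 and 491 CPM in mutants and at 190 and 222 CPM in controls.

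In the 364 barcodes of the 3-of-6 rule, 45 of the 49 genes were tested, of which 40 kept their direction, 22 were called again, and *Ccl3*, *Ccl4*, *Col1a1*, *Col1a2* and *Dcn* turned without being called. In the protease barcodes 42 were tested, of which 34 kept their direction, 24 were called again and 8 turned, 5 of them called. These sets share cells with the 126 leukocytes, so the counts are not independent of them. The counts also take each copy of *Snord3b*, and *Gm12191* and *Rpl30-ps9*, on its own, although their values are the same.

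The other lists held few calls. Of the 8 stem and progenitor genes none was called (median 0.08), and of the 7 genes of granulocyte-monocyte precursors 6 were tested and none was called (median −0.02). None of 12 cell cycle genes was called (median 0.11), nor any of 10 nuclear genes of oxidative phosphorylation (median −0.03). The 12 ribosomal protein genes had no call, with 9 above both controls, against 19.6% of all genes tested, and a median of 0.29. Of the 9 mature neutrophil genes 4 were tested, and *Il1b*, which entered through the control cells alone, was the single call (0.553% of all genes tested were called lower). Apart from *Il1b*, the tested genes of this list all lay below both controls, as did 20.9% of all genes tested. The median of −1.18 includes *Il1b*. Of the 11 chemokine and adhesion receptors for retention in the marrow, 7 were tested and none was called, with 6 below both controls, against 20.9% of all genes tested, and a median of −0.53. *Cxcr4*, the receptor of *Cxcl12*, stood at 95.8 and 127 CPM in mutants and at 146 and 172 CPM in controls (log2 change −0.53, SE 0.26, adjusted p = 0.571, edgeR). Of 12 Hippo pathway genes 6 were tested and none was called (median 0.01). Of 12 pro-fibrotic factors secreted by leukocytes 6 were tested and none was called (median −1.05, range −3.62 to 0.46). Of these, 3 lay below both controls and 1 above, against 20.9% and 19.6% of all genes tested. The 1 above was *Tgfb1*, transforming growth factor beta 1, at 453 and 375 CPM in mutants and at 305 and 304 CPM in controls (0.46, adjusted p = 0.542, edgeR). In the remaining lists, no tested gene was called apart from *Hdc*, *Car1* and *Dcn* above, and none of the neutrophil, macrophage, osteoclast, dendritic cell, B-lineage, T cell, plasma cell and secondary granule genes passed the filter. Adjusted p-values here are over all 6147 genes.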

How the data were processed

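Single cells were captured with 10x Chromium V3 chemistry. Per the labels and the methods of the study, the authors trimmed reads with cutadapt 3.5 and counted UMIs over exons and introns with STARsolo 2.7.10a on mm39 (GRCm39, GENCODE M26, with the Cre and reporter sequences added). The deposited files hold expected counts, unfiltered and not normalized, in which the authors shared reads of several genes by expectation maximization. Reads of near-identical copies are therefore estimates.

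Barcodes were filtered and leukocytes chosen as given in the text. The members and all lists were chosen with earlier results of these data known. Expected counts were summed per library over the leukocytes, rounded, and tested with edgeR 4.0.16 (quasi-likelihood, TMM, limma 3.58.1, R 4.3.3) for genes that filterByExpr kept and that 20% or more of the mutant or of the control cells expressed, with Benjamini-Hochberg adjustment over all genes tested. CPM are relative to the leukocytes' own UMIs. Cells were clustered with scanpy 1.11.5 on 2000 variable genes and 30 components, with 15 neighbours, a resolution of 0.5 and an own implementation of Harmony (Python 3.11.15, anndata 0.12.19, numpy 2.4.6, scipy 1.17.1, pandas 2.3.3, matplotlib 3.10.9). Doublets were scored with Scrublet at 0.8% per 1000 barcodes and kept in the main set. Marker lists (25) and gene lists (20) were described by counts and medians. Named genes were those of the lists and of the rule, the 10 leading genes of each cluster by ratio at 50 CPM or more, and the 10 largest changes in each direction; genes outside this rule are marked in the text as picked with their values known. The test was checked on simulated counts for 6147 genes. It called 14% of 2-fold, 64% of 4-fold, 90% of 8-fold and 94% of 16-fold changes, with 50 genes at each size, and made 5 false calls. The simulation drew sums per library, without the filter on 20% of cells and without UMIs gathered in single cells. Its 5 false calls therefore do not cover errors from these sources. Alternatives were DESeq2 1.42.0, RLE size factors, no filter, other limits of the rule, other cell sets, thinning, no integration, a resolution of 1, free-RNA subtraction, a replicate block and each library left out. Positions of genes were read from GENCODE M39 (GRCm39). Fits within clusters were not run, and no column of per-sample values was left unused.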

Additional observations from a re-analysis of the deposited data

Results flagged for a closer look

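The Cre-ERT2 transcript, which had no UMI in any leukocyte, stood at 4.15 and 4.46 CPM in the empty droplets of the 2 mutant libraries and at 0 in those of both controls; it was picked out because it is a signal outside the main measurement.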

How the results depend on the processing

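The share of leukocytes stayed lower in mutants in each setting tried, with a log2 ratio of −0.99 at a minimum of 1 *Ptprc* UMI and −2.28 to −1.35 with each library left out. For cluster shares, none past the threshold, a minimum of 3 *Ptprc* UMIs gave −0.35, 0.19, 0.050 and −0.25 for clusters 0 to 3, and no integration 0.14 for cluster 1. With each library left out, cluster 0 ranged from −0.14 to 0.44 and cluster 2 from −0.47 to 0.25, each turning without the first mutant library.

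Calls numbered 15 higher and 34 lower. DESeq2 gave 9 and 18, no filter on low counts 84 and 205, no limits on *Col2a1* and *Bglap* 4 and 4, doublets left out 10 and 20, and each library left out 18 to 80 and 40 to 138, the most without a mutant library. Thinning, the sets without cluster 3 or neutrophil-rich cells and the sets chosen without *Ptprc* were added after the data were seen: 3 other leukocyte genes gave 13 and 18, and basophil proteases 83 and 58. The replicate numbers did not pair the libraries (r = 0.05 over 6147 genes, 2 pairs), and the fit with the replicate block gave 13 and 28 calls, of which 39 were among the 49.

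Over 49 called genes and 746 values in other settings, 552 kept direction and call, 180 kept the direction only and 14 reversed. In the set of 3 other genes *Ccl3* stood at 0.90, *Ccl4* at 1.25, *Col1a1* at 1.46, *Col1a2* at 1.13 and *Dcn* at 2.01. With basophil proteases they stood at 1.61, 1.99, 3.67, 3.39 and 4.53, and *Slpi* at 0.21, *Cd52* at 0.18 and *Antxr2* at 0.021. Without cluster 3, *Dcn* stood at 0.33. The cause was not tested. Fits within clusters and their interaction were not run, since no cluster had 10 cells in each library. With 24 mutant cells, a count of 0 allows a lineage's share to be as high as 12.5%.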

Other observations

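Barcodes rich in megakaryocyte genes stood almost entirely outside the leukocyte rule. Barcodes with at least 50 UMIs of 8 megakaryocyte and platelet genes per 10000 numbered 28 and 31 in the mutants and 99 and 92 in the controls, of which 1 met the rule on *Ptprc*. Their share of filtered barcodes was 0.521% ± 0.0130 (SD, n = 2) in mutants and 1.35% ± 0.0631 (SD, n = 2) in controls, with both mutant libraries below both controls (2-sided exact permutation p = 0.333, the smallest possible).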
